A study of Mus musculus with 24 samples.

Results

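Spermatocytes, the germ cells that carry out meiosis, were compared between Nutm1 KO and WT mice. The comparison takes the 3 directly prepared arrays of each genotype, which are 6 of the 24 arrays of the study, by the cell stage, genotype and replicate given in the sample titles. All animals were adult males of the mixed strain background B6/129sv, and the only genetic difference the labels name is at Nutm1. The strain from which each chromosome came in either genotype is not given in the sources used here. The mutant is a KO in the labels and a knock down in the design text, and neither describes the altered part of the gene. Cells were enriched from testis suspensions by sedimentation through bovine serum albumin, and each WT replicate pooled 2 mice and each KO replicate 3 mice. Replicates 1 to 3 of a genotype are separate fractionations, so the spread between them includes animals and separations. Replicates 4 to 6 were mixed from the RNA of replicates 1 to 3 and are used below only as a check. Round spermatids, the haploid cells that follow meiosis, came from the same fractionations as the spermatocytes of their genotype, so the stages share animals and separations. They are given beside spermatocytes where the stages differ.

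Nutm1 encodes Nut, a protein made in the testis that binds the acetyltransferase p300, and the study title concerns acetylation of histone H4. Histones of late male germ cells are hyperacetylated before transition proteins and then protamines replace them. Spermatocytes transcribe many genes whose products are used only in spermatids and sperm, so a transcript of the haploid stage can already be present in meiosis. The question of this comparison is which transcripts differ without Nut before the haploid stage.

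RNA levels are probe signals on a log2 scale after background correction and quantile normalization, where a difference of 1 is a doubling. The 6 arrays had median raw signals of 146.9 to 171.3 and detected 14445 to 16244 of 45281 probes, and the number of arrays limits the precision. Pairwise Pearson correlations between them over the 12705 features tested were 0.940 to 0.983. The label of the cells was checked on 13 measured spermatocyte markers, of which 0 differed between genotypes by limma's adjusted p. Of all features 0.834% did, so little can be read from 0 of 13. The mean level of these markers was 11.45, 11.55 and 11.83 on the KO arrays and 11.70, 11.62 and 11.69 on the WT arrays. The same markers averaged 11.51 to 11.69 on round spermatid arrays, so this list does not separate the stages. Piwil1, of the piRNA pathway, read 14.36 to 14.80 on the spermatocyte arrays and averaged 11.90 in KO and 11.62 in WT round spermatids. Spo11, which makes meiotic double strand breaks, read 12.27 to 12.93 and averaged 10.87 and 11.50 there. Syce2, a synaptonemal complex gene, was detected on none of the 6 spermatocyte arrays, and Sycp1 was detected on 1 KO array and 3 WT arrays.

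Other cells were present in the fractions, and 1 WT array stood apart. The 16 measured round spermatid markers averaged 11.65, 11.51 and 11.54 on the KO arrays and 11.18, 11.45 and 12.30 on the WT arrays. WT replicate 3 was thus the highest of the 6, while WT replicates 1 and 2 lay below all KO arrays. In round spermatid fractions the same list averaged 12.76 to 13.16. Steroid enzymes and other Leydig cell genes (5 measured) averaged 11.996, 7.48 and 9.52 on the KO arrays and 10.04, 10.68 and 9.67 on the WT arrays, with KO replicate 1 highest and KO replicate 2 lowest. The mean of 13 macrophage genes was 5.01 to 5.98 in KO and 5.07 to 5.80 in WT, and 5 of them, including Csf1r and Adgre1, were detected on none of these arrays. Spermatogonial, Sertoli, peritubular and endothelial, and erythroid lists ran from 7.77 to 7.93, 6.37 to 7.12, 7.14 to 8.03 and 5.37 to 5.98 in KO. In WT they ran from 7.74 to 8.36, 6.95 to 7.24, 6.53 to 7.72 and 5.86 to 6.26. Of the 8 marker lists, 0 had a member that passed the test, beside 0.834% of all features, so equal cell content is not shown. At an unadjusted limma p under 0.05, 3 of 9 Sertoli and 2 of 7 spermatogonial genes were lower in KO and 0 higher. Over all 12705 features 876 reached that p in either direction. The median differences of these lists were -0.37 and -0.41. The plot of marker lists shows the list means array by array.

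**Figure D1:**
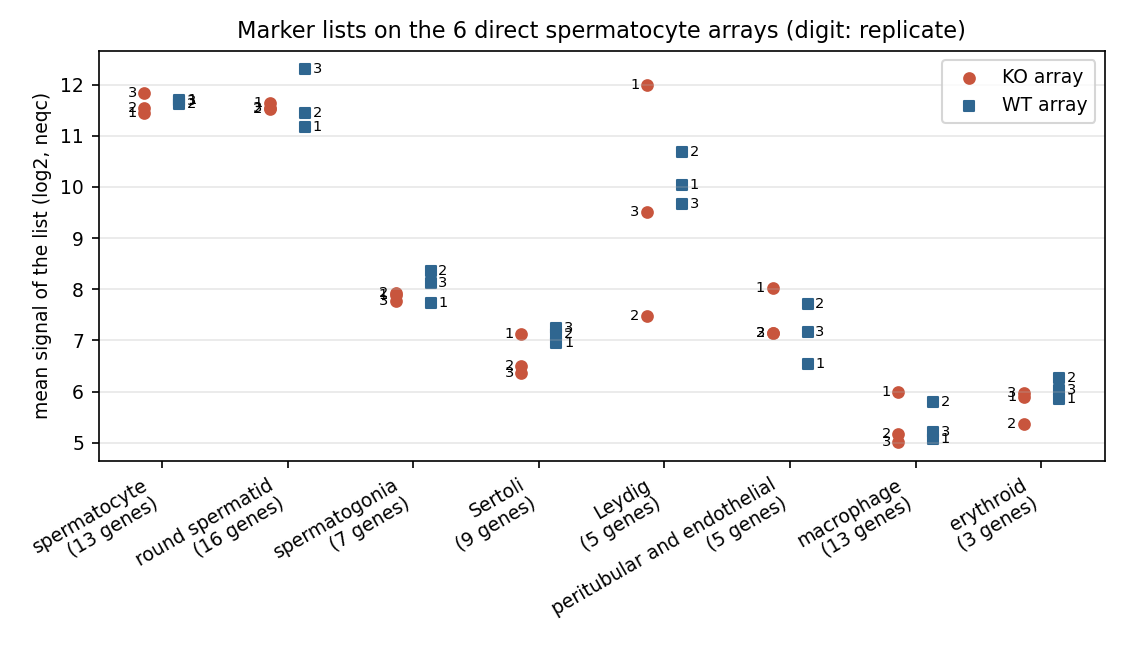
Mean signal (log2) of each marker list on the 3 KO and 3 WT direct spermatocyte arrays, with the replicate number beside each point. Round spermatid markers are highest on WT replicate 3 (12.30) and Leydig markers spread most, from 7.48 on KO replicate 2 to 11.996 on KO replicate 1.

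The target gene was low in spermatocytes of both genotypes. Nutm1 read 5.51, 5.69 and 5.67 on the KO arrays, 2 of which detected it, and 5.76, 6.17 and 6.89 on the WT arrays. All KO values lay below all WT values, but the KO minus WT difference of -0.65 (SE 0.24) did not pass (adjusted p = 0.546, limma). In round spermatids Nutm1 averaged 6.86 in KO and 8.37 in WT and fell (-1.50, SE 0.24, adjusted p = 0.00156), while the stage difference of -0.86 did not pass (adjusted p = 0.275). The spermatocyte difference was -0.34 without WT replicate 3, the array with the most spermatid marker signal, and -0.90 without WT replicate 1. With the mixed arrays added it was -0.54 with an adjusted p of 0.0169, although mixtures are not separate samples. Nutm1 has a single probe, and whether that probe lies in the altered part of the gene is not known here.

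Far more transcripts were lost than gained in KO spermatocytes. Of 12705 features tested (10076 named genes and 2629 probes with no gene name), 82 fell and 24 rose at an adjusted p under 0.05. That is 0.645% lower and 0.189% higher, or 0.834% in either direction, and falls made up 77.4% of the calls. Without background correction 33 fell and 18 rose (64.7% falls), and with the 6 spermatocyte arrays scaled by cyclic loess and fitted alone 17 fell and 10 rose (63.0% falls). With genes undetected in their lower group counted at their bound, as explained below, 64 of the 82 falls were 2-fold or more, 25 were 4-fold or more, 10 were 8-fold or more and 4 were 16-fold or more. Of the 24 rises, 19 were 2-fold or more, 5 were 4-fold or more and 1 was 8-fold or more. The median fitted difference was -1.91 for the falls and 1.45 for the rises, or -1.51 and 1.18 with such genes at their bound, against -0.0003 for all features. A median of changed genes is set by the calls and is given as a description. In bulk fractions, fewer cells of a type and less RNA per cell cannot be told apart.

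Many losses ended below the limit of detection. Of the 82 falls, 43 were detected on no KO array, 8 on 1 or 2 and 31 on all 3, while 80 were detected on all WT arrays. Of the 24 rises, 7 were detected on no WT array. For a gene detected on no array of its lower group, the fold is given as "at least" a value, a bound against the lowest detected level. The KO and WT arrays of all 106 changed features lay apart, as they did for 9.2% of all features (3.9% higher and 5.3% lower in KO). At an unadjusted p under 0.05 there were 876 features. The plot of difference against p shows both directions.

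**Figure D2:**
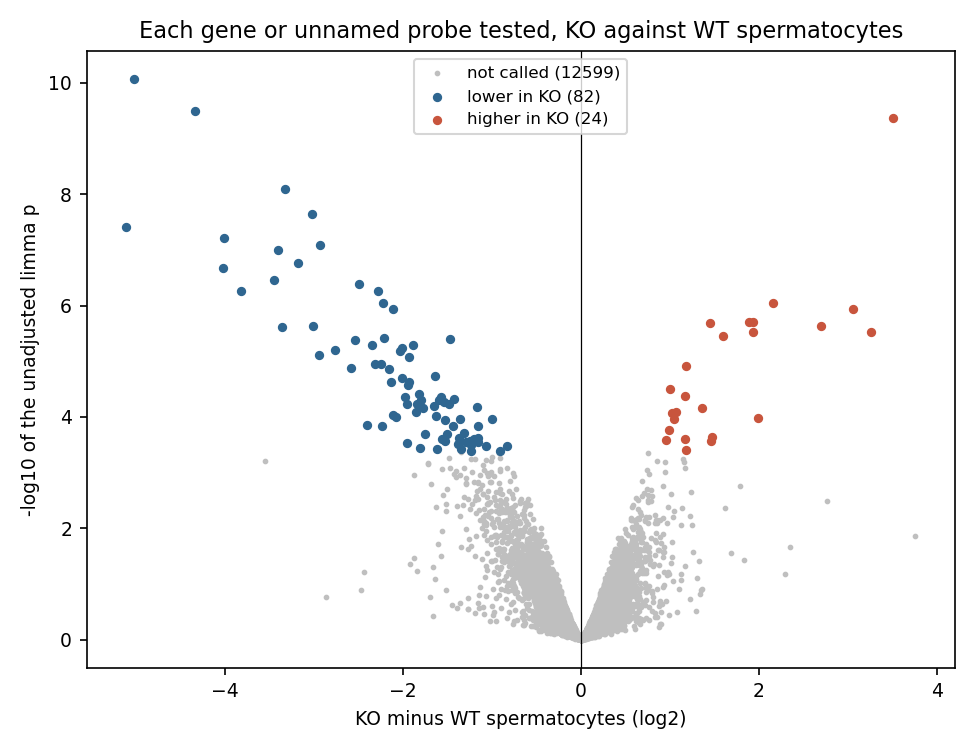
Each of the 12705 features by its KO minus WT difference in spermatocytes (log2, x axis) and the -log10 of its unadjusted limma p (y axis). The 82 falls reach further from 0 than most of the 24 rises, and the 12599 features that did not pass are in grey.

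The falls were read most strongly from WT replicate 3. That array was the highest WT array for 75 of the 82 falls, against 31.9% of all features, and for 12 of the 24 rises. The median level of the falls was 7.46, 7.44 and 8.38 on WT replicates 1, 2 and 3 and 5.26, 5.62 and 5.41 on the KO arrays. The same genes had medians of 10.14, 10.004 and 10.28 in WT round spermatids. WT replicate 3 was thus the spermatocyte array with the highest levels of these genes and of the spermatid markers. Set against WT replicate 1, 2 or 3 alone, the median KO minus WT difference of the falls was -1.52, -1.59 or -2.56. The falls were called from these arrays, so that they lie apart on each is a description. The part of spermatid content in these values was not tested. Without WT replicate 3, 89 features changed, 54 lower and 35 higher, and 74 of them were among the 106. Leaving out KO replicate 3 or KO replicate 2 gave 60 or 68 changed features, of which 58 and 66 were among the 106. Without KO replicate 1, which had the most Leydig signal, 102 changed and 77 of them were among the 106. With the 6 spermatocyte arrays fitted alone, so that round spermatid arrays did not share in the estimate of the spread, 35 passed, all among the 106.

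The 4 largest named losses by fitted difference were Bpifa3, Dydc2, Cstl1 and Lelp1, all clearly detected in WT. Bpifa3, a member of the BPI fold family of lipid-binding proteins, read 4.64, 4.82 and 4.43 on the KO arrays and 8.66, 9.59 and 10.97 on the WT arrays. Dydc2, which encodes a protein with a DPY30 domain, read 4.96, 4.74 and 4.57 in KO and 9.34, 9.58 and 10.41 in WT. Neither was detected on any KO array, so the losses of at least 17.5-fold for Bpifa3 (difference -5.11, SE 0.42, adjusted p = 8.37e-05) and at least 17.9-fold for Dydc2 (-5.02, SE 0.24, adjusted p = 1.08e-06) are bounds. A second probe of Dydc2 differed by -3.55. Cstl1, a cystatin-like gene, read 6.54, 6.30 and 6.35 in KO and 10.24, 10.65 and 11.30 in WT. Lelp1, a proline-rich relative of the late cornified envelope proteins, read 6.84, 6.51 and 6.32 in KO and 9.70, 10.48 and 11.55 in WT. Both remained detected on every KO array, with differences of -4.33 (SE 0.23, adjusted p = 1.79e-06) and -4.02 (SE 0.39, adjusted p = 0.000247).

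The next losses included an enzyme of acid-base balance, a sperm tail gene and developmental transcription factors. Glt6d1, a glycosyltransferase gene, read 5.18, 4.79 and 4.82 in KO, none detected, and 8.43, 8.49 and 9.92 in WT. Car2, carbonic anhydrase 2, which interconverts CO2 and bicarbonate, read 5.65, 5.21 and 5.06 in KO and 8.27, 8.80 and 10.30 in WT. Odf3b, of the outer dense fibre 3 family of sperm tail proteins, read 6.06, 6.60 and 5.88 in KO and 8.99, 9.40 and 10.50 in WT. These genes differed by -4.01 (SE 0.34, at least 10.05-fold), -3.81 (SE 0.40) and -3.45 (SE 0.35), with adjusted p of 0.00011, 0.000459 and 0.000371 in that order, and the second probe of Odf3b differed by -2.66. Etv2, an ETS factor known for founding the endothelial and blood lineages, read 4.88, 5.49 and 4.56 in KO and 8.17, 8.02 and 8.96 in WT. Prox1, a homeobox factor known for lymphatic endothelial identity, read 5.22, 4.97 and 5.61 in KO and 7.53, 7.78 and 9.33 in WT. Neither factor was detected on a KO array, and they fell at least 6.80-fold (-3.40, SE 0.31) and at least 6.06-fold (-2.95, SE 0.40), with adjusted p of 0.000145 and 0.00269.

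Scgn, Tmco5b and Cyp2a12 completed the 12 largest named falls. Scgn encodes secretagogin, an EF-hand calcium-binding protein, and read 5.33, 5.15 and 5.40 in KO against 8.30, 8.38 and 9.18 in WT (-3.33, SE 0.24, at least 8.03-fold, adjusted p = 2.6e-05). Tmco5b, a gene for a coiled-coil membrane protein, read 5.87, 6.05 and 5.80 in KO against 8.27, 8.49 and 9.999 in WT (-3.01, SE 0.36, adjusted p = 0.00123). Cyp2a12, a cytochrome P450 best known from liver, read 4.65, 4.72 and 4.64 in KO against 7.25, 7.20 and 8.34 in WT (-2.93, SE 0.26, at least 3.96-fold, adjusted p = 0.000133). WT replicate 3 was the highest array for all 12 of these genes. All 12 kept their calls when any 1 of the 12 direct arrays was left out and their differences then lay between -5.65 and -2.39.

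The 3 largest named rises were in genes of signalling and membrane proteins. Cnga3, a cyclic nucleotide-gated channel subunit known from cone photoreceptors, read 7.51, 7.98 and 8.04 on the KO arrays and 4.66, 4.80 and 4.90 on the WT arrays, none of which detected it. Bmp7, a secreted bone morphogenetic protein, read 8.78, 8.71 and 7.87 in KO and 5.42, 5.38 and 6.49 in WT. Tspan17, a tetraspanin, read 10.21, 9.97 and 9.41 in KO and 7.47, 7.98 and 7.68 in WT. The rises were 3.05 for Cnga3 (SE 0.34, at least 5.07-fold, adjusted p = 0.000766), 2.69 for Bmp7 (SE 0.32, adjusted p = 0.00123) and 2.16 for Tspan17 (SE 0.24, adjusted p = 0.000686). For these 3 genes the lowest KO array lay more than 1 above the highest WT array. The other probe of Tspan17 differed by 2.31.

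Lipid and glycan enzymes were among the next rises. Mtmr3, a myotubularin phosphatase that acts on phosphoinositides, read 9.27, 9.10 and 9.85 in KO and 7.65, 7.41 and 7.49 in WT (1.89, SE 0.22, adjusted p = 0.00118), and its other probe differed by 1.81. B4galt5, a galactosyltransferase that makes lactosylceramide, read 6.94, 6.77 and 6.82 in KO and 4.96, 5.10 and 4.67 in WT, where it was not detected (1.93, SE 0.24, at least 2.54-fold, adjusted p = 0.00143). Lrrc3, a leucine-rich repeat gene, read 6.81, 6.59 and 6.33 in KO and 4.72, 4.54 and 4.67 in WT, also not detected there (1.93, SE 0.23, at least 2.11-fold, adjusted p = 0.00118). These 3 and the 3 above kept their calls when any 1 direct array was left out. C1qtnf12, a secreted C1q/TNF-related protein, read 8.90, 8.28 and 8.47 in KO and 6.62, 6.73 and 6.33 in WT (1.99, SE 0.35, adjusted p = 0.0186). Its call was lost in 4 of the 12 fits without 1 array, including those without KO replicate 1 (adjusted p = 0.0578) and WT replicate 3 (adjusted p = 0.0802).

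The smaller named rises stood nearer to the threshold. Cbx3, the heterochromatin protein HP1 gamma, read 9.96, 9.62 and 9.98 in KO and 8.93, 8.50 and 8.62 in WT (1.17, SE 0.19, adjusted p = 0.0103), but its other probe differed by -0.03, so the probes disagree. Inpp4a, an inositol polyphosphate 4-phosphatase, read 9.51, 9.28 and 9.96 in KO and 7.74, 7.74 and 8.87 in WT (1.46, SE 0.29, adjusted p = 0.0373), and its other probe differed by 1.02 and did not pass. Insig1, the endoplasmic reticulum protein that holds back sterol synthesis, read 9.47, 9.06 and 8.62 in KO and 7.81, 7.82 and 7.97 in WT (1.19, SE 0.25, adjusted p = 0.0487). Of the 2 other probes of Insig1, 1 differed by 1.48 and the other by 0.10. Lrrk1 (1.17, SE 0.23) and Pak2 (1.07, SE 0.18), both protein kinase genes, rose with adjusted p of 0.036 and 0.0158. Lrrk1 was detected on no WT array, so its rise is at least 1.26-fold, and the other probe of Pak2 differed by 0.34 and did not pass. The fits without 1 direct array lost the call in 11 of 12 cases for Inpp4a, 10 for Insig1, 7 for Lrrk1, 3 for Pak2 and 1 for Cbx3. The highest adjusted p among them were 0.196, 0.158, 0.177, 0.0712 and 0.0567 in that order. The plot of the named genes shows every array.

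**Figure D3:**
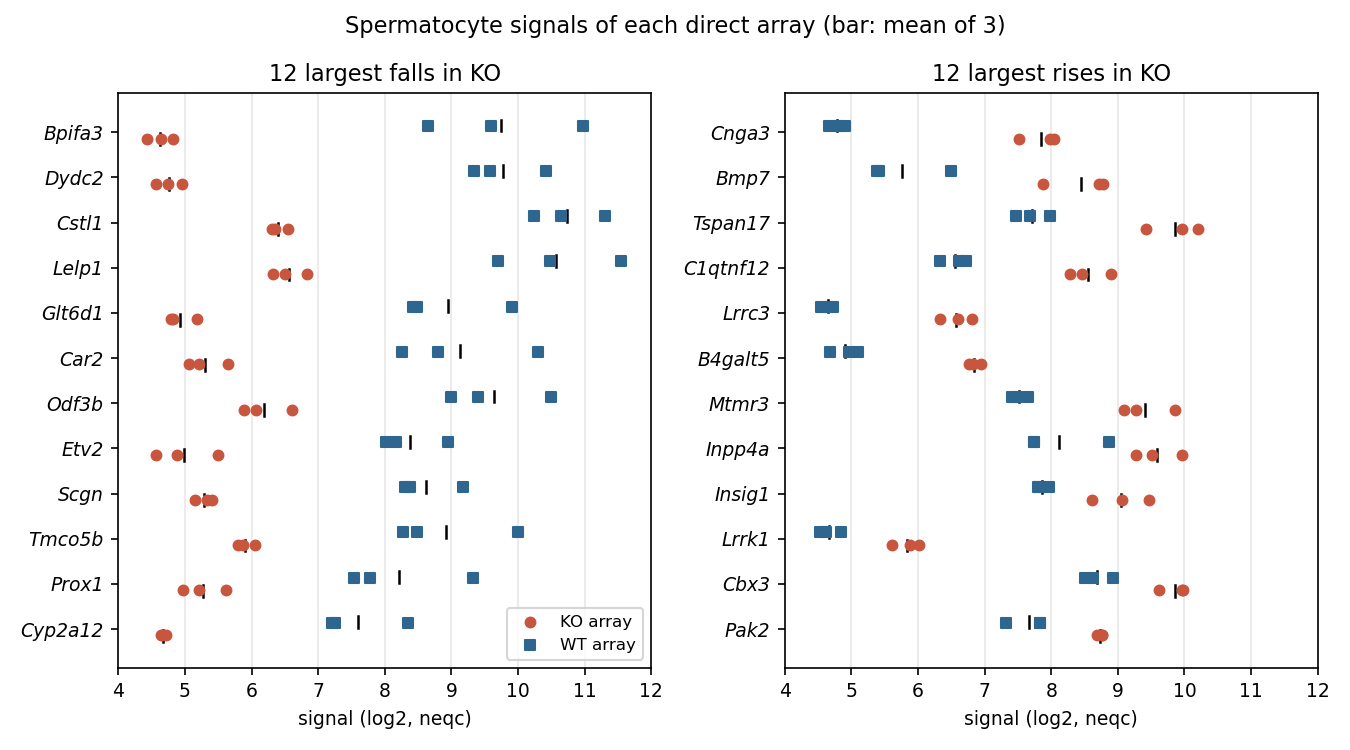
Signals (log2, x axis) of the 12 largest named falls and the 12 largest named rises on each direct spermatocyte array, KO as circles and WT as squares, with a bar at the mean of 3 arrays. KO and WT arrays of every gene shown lie apart, as the choice of named genes required, and among the falls the WT array furthest right is replicate 3.

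The upstream sequences of the 3 largest falls and the 3 largest rises with a single start in RefSeq are shown to set genes that were lost beside genes that were gained. Each line gives the 250 bases before the start, 5′ to 3′ on the gene's strand, from RefSeq with build GRCm38.p6. Capitals mark GC boxes (GGGCGG, searched on both strands) and CCAAT motifs (both strands, where overlapping matches count separately). The positions are chr2:154130086-154130335 (plus strand) for Bpifa3, chr2:148750111-148750360 (plus) for Cstl1, chr3:92142755-92143004 (minus) for Lelp1, chr13:54789155-54789404 (plus) for Tspan17, chr10:77902537-77902786 (minus) for Lrrc3 and chr2:167349179-167349428 (minus) for B4galt5.
Bpifa3: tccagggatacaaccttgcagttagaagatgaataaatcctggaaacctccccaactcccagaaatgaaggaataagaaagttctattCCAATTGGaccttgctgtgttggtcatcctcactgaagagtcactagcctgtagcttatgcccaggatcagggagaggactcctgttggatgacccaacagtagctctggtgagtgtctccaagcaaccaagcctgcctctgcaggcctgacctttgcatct
Cstl1: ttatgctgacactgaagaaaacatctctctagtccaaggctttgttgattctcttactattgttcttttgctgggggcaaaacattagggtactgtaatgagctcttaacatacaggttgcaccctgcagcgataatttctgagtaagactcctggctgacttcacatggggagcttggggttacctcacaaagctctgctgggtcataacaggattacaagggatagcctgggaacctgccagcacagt
Lelp1: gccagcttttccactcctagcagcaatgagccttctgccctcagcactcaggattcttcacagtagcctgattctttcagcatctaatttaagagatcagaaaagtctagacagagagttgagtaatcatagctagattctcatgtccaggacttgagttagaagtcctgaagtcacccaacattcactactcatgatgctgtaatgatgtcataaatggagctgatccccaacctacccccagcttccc
Tspan17: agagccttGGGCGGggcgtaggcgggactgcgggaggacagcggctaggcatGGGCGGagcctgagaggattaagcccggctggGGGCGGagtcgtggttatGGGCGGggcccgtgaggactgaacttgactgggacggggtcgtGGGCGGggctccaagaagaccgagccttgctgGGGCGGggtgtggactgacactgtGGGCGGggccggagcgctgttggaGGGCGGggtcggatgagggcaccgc
Lrrc3: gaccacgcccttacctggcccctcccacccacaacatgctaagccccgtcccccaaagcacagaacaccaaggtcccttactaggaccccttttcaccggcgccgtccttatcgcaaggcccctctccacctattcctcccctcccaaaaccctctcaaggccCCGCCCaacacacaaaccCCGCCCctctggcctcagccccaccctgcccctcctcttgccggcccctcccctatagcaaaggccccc
B4galt5: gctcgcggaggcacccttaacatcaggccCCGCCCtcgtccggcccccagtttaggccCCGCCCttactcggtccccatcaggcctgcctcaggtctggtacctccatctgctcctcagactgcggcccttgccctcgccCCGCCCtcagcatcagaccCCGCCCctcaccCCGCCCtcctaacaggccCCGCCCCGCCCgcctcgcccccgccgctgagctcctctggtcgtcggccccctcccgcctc
The windows of the rises hold 8 GC boxes in Tspan17, 2 in Lrrc3 and 7 in B4galt5, and the windows of the falls hold 0, with 2 overlapping CCAAT matches in Bpifa3. Among the 12 largest falls, 11 had a listed promoter, and 2 of the 11 genes held a GC box and 4 a CCAAT motif. Among the 12 largest rises, 8 had a listed promoter, and 7 of these genes held a GC box and 1 a CCAAT motif.

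Over all changed genes the contrast in GC boxes was smaller. Promoters were listed for 56 of 67 named falls with a current symbol and 11 of 16 named rises. A GC box was present in 40.8% of 76 promoters of falls and 70.6% of 17 promoters of rises, against 54.1% of 10477 promoters of measured genes and 32.7% of all 32851 listed. CCAAT was present in 23.7% of promoters of falls and 11.8% of rises, against 35.2% of measured genes. TGACG, the core of the cyclic AMP response element, was present in 22.4% of promoters of falls and 23.5% of rises, against 25.5% of measured genes. These matches describe letters in a window, some genes have several listed starts, and no test was made.

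The sperm tail, sperm channel and acrosome lists together had 2 changed genes among 71 distinct genes measured, or 2.82%, beside 0.834% of all features. Lists of transition proteins and protamines, sex-linked spermatid genes and testis metabolism isoforms, given further below, had 0 and are not in this share. The counts are too small for anything to be read from the shares. Of 30 measured sperm tail and axoneme genes, 1 fell (Odf3b) and 0 rose, with a list median of 0.02 and a range of -3.45 to 0.46. Akap4, the main scaffold of the fibrous sheath, differed by 0.46 (adjusted p = 0.92) and Tekt3, a tektin, by 0.29 (adjusted p = 0.86). Of 16 sperm channel and cyclic AMP genes, 1 fell: Prkar2a, a regulatory subunit of protein kinase A, by 1.43 (SE 0.23, adjusted p = 0.011), or at least 2.11-fold, since no KO array detected it. Of 25 acrosome and egg-binding genes, 0 passed, with a median of -0.16. The list medians stand beside a median of -0.0003 over all features.

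Genes for proteins that pack haploid chromatin had no passing change of RNA in spermatocytes. With 0.834% of all features called, 0 in lists of the sizes below is not read as a result. Of 4 measured transition protein and protamine genes 0 passed, with differences of 0.00 for Tnp1, 0.02 for Prm1, -0.16 for Tnp2 and -0.21 for Prm3. Tnp1 read 13.69, 13.37 and 13.63 in KO and 13.26, 13.64 and 13.77 in WT, so the groups overlapped. Of 15 testis histone variants, 0 passed (median -0.11, range -0.41 to 0.16). Of 9 genes for Nut and its partners 0 passed, among them Ep300, the p300 gene (0.02), Brdt, the testis bromodomain reader of acetylated histones (0.24), Brd2 (-0.03) and Brd3 (-0.08). None of 13 acetyltransferases passed, nor of 12 deacetylases and sirtuins or of 25 histone methylation enzymes. Their medians were 0.06, -0.03 and 0.09. The deacetylase gene furthest from 0 was Hdac4 (-0.79, SE 0.23, adjusted p = 0.236).

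The meiotic and cell division lists below had 2 changed genes among 142 distinct genes measured, or 1.41%, beside 0.834% of all features. Nothing is read from that share. Of 21 genes of double strand breaks and recombination, 14 of the synaptonemal complex and cohesin, 18 of the piRNA pathway and germ granules and 4 of meiotic entry, 0 passed. The lowest members were Msh5, a crossover factor, in the first list (-0.45, adjusted p = 0.84), and Sycp2, an axial element protein, in the second (-0.36, adjusted p = 0.80). Of 12 sex body genes, 1 rose (Cbx3, by the probe given above). Of 24 transcription regulators of pachytene cells and spermatids 0 passed, and Rhox13, an X-linked homeobox gene, came nearest (-0.97, SE 0.23, adjusted p = 0.0998). Among 29 genes of meiotic and mitotic division 0 passed, with Cdc25c, a phosphatase that promotes entry into division, at 0.75 (SE 0.21, adjusted p = 0.206). Of 21 DNA replication genes, 1 fell (Gins1), and Fen1 and Gins2 differed by -0.64 (adjusted p = 0.25) and -0.60 (adjusted p = 0.46).

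The gene families of the largest falls were listed because they hold a changed gene, so their counts (beside 0.645% lower and 0.189% higher over all features) are a description. Of 7 cystatins, 1 fell (Cstl1), and its neighbours in the list, Cst9 and Cst12, differed by -1.47 (SE 0.33, adjusted p = 0.0819) and -0.72 (adjusted p = 0.63). Cst9 and Cst12 are also on the Sertoli marker list. Csta3, a cystatin A family gene outside the list, fell too (mean 4.67 in KO, not detected there, and 5.83 in WT). Of 6 BPI fold genes, 1 fell (Bpifa3), and of 7 carbonic anhydrases, 1 (Car2). Of 10 beta-defensins, 1 fell: Defb33 read 8.22, 7.66 and 7.47 in KO and 9.41, 9.73 and 10.02 in WT (-1.93, SE 0.26, adjusted p = 0.00283). Of 10 kallikreins, 1 fell: Klk1b9, a serine protease gene, read 5.60, 4.54 and 4.60 in KO and 6.59, 6.94 and 7.68 in WT (-2.16, SE 0.31, adjusted p = 0.00409). Klk1b genes are near copies of each other, so their probes may not be specific, and a second Klk1b9 probe differed by -0.61.

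The families of the largest rises were chosen in the same way. Of 5 cyclic nucleotide-gated channel genes 1 rose (Cnga3), of 12 tetraspanins 1 (Tspan17), of 22 BMP and TGF-beta genes 1 (Bmp7) and of 19 sterol genes 1 (Insig1). Of 33 phosphoinositide phosphatases and kinases, 2 rose (Mtmr3 and Inpp4a). Of 18 galactosyl and related glycosyltransferases, 1 rose (B4galt5) and 1 fell (Glt6d1). Of 10 ETS factors, 1 fell (Etv2) and 1 rose: Elk4 read 6.05, 5.67 and 6.09 in KO and 4.49, 4.59 and 4.39 in WT (1.45, SE 0.17, adjusted p = 0.00118), while its 2 other probes differed by 0.46 and 0.85 and did not pass. Lists of the unfolded protein response (14 measured), heat shock and immediate early genes (19), p53 and cell death (18), testis metabolism isoforms (18), sex-linked spermatid genes (25), germ cell RNA-binding proteins (34), the proteasome (24), oxidative phosphorylation (23), ribosomal proteins (18) and reference genes (12) had 0 members that passed. Since 0.834% of all features passed, 0 in lists of these sizes is not read as a result. Over these 10 lists the medians lay between -0.22 and 0.07.

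Changed genes were unevenly spread over the chromosomes, and chromosome 2, which carries Nutm1, had the highest share. On chromosome 2, 18 of 788 measured genes changed (15 lower, 3 higher), or 2.28%. On the other chromosomes together 65 of 9256 changed, or 0.702%, and the next highest was chromosome 1 with 1.75%. On the X 1 of 311 changed and on chromosome 19 0 of 354. Position was examined after the calls were known, so these shares are a description with no test.

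The calls on chromosome 2 lay almost all on the side of Nutm1 toward higher coordinates in the RefSeq gene order of GRCm38.p6. On that side 16 of 429 measured genes changed (13 lower, 3 higher), or 3.73%, and on the other side 2 of 358, or 0.559%. Among the 100 measured genes next to Nutm1 on each side, 5 changed on the higher side and 0 on the lower. KO and WT arrays lay apart for 20% of the former and 4% of the latter, against 8.37% on the other chromosomes. The next 3 blocks on the higher side, of 100, 100 and 129 genes, had 3, 5 and 3 calls. In round spermatids the same comparison changed 18.9% of genes on the higher side, 15.4% on the lower and 14.2% elsewhere. The side difference in spermatocytes kept its direction in every alternative tried. Where direct arrays alone were fitted, 1.4 to 4.43% changed on the higher side and 0.279 to 1.4% on the lower. The other chromosomes had 0.162 to 0.94%. With mixtures included the shares were 33.3% on the higher side, 29.1% on the lower and 27.2% elsewhere. With mixtures alone they were 51.3%, 49.2% and 46.7%. The labels give the same mixed strain background for both genotypes, and which strain this region came from in each is not given in the sources used here.

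**Figure D4:**
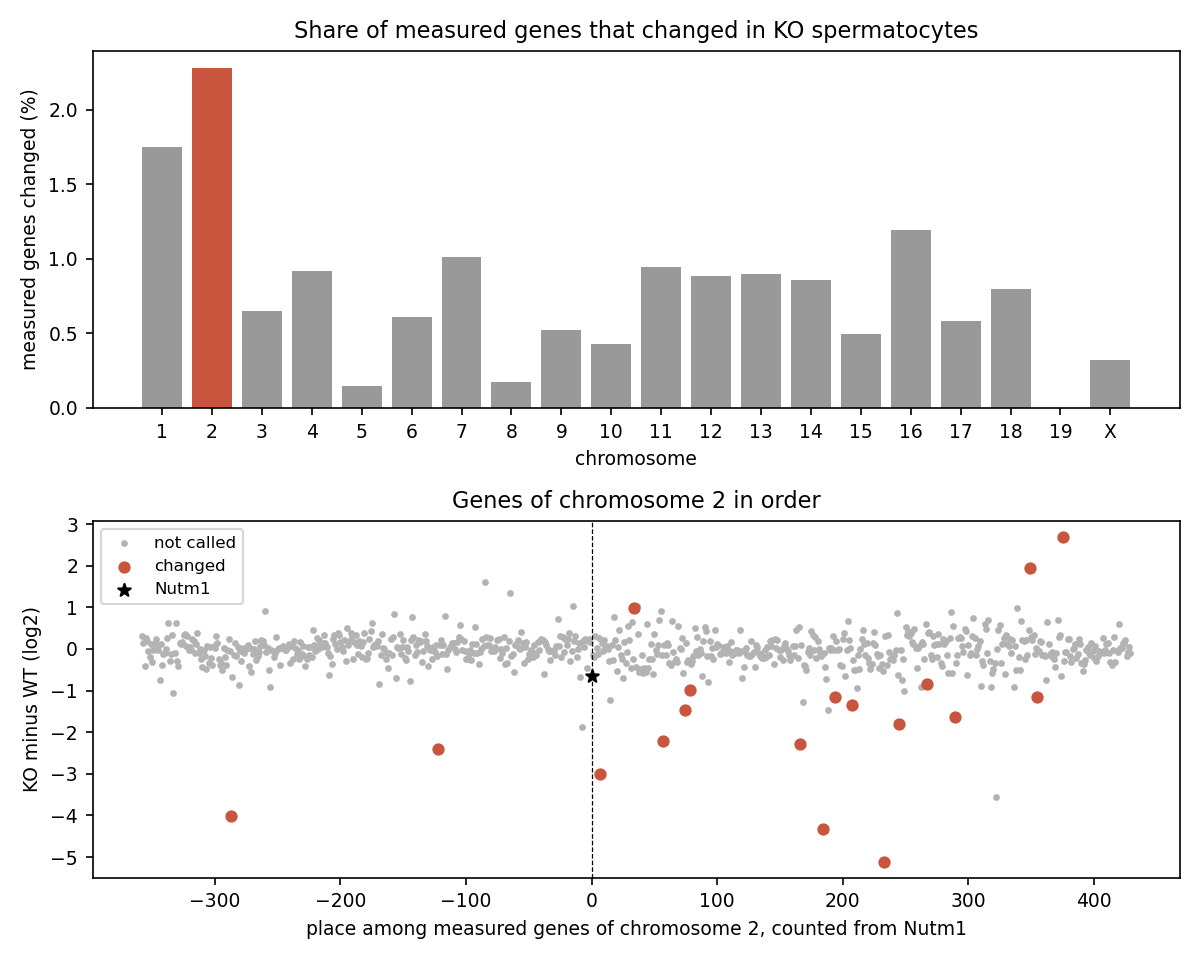
Share of measured genes that changed in KO spermatocytes on each chromosome (top, %), and the KO minus WT difference (log2) of each measured gene of chromosome 2 by its place in gene order from Nutm1 (bottom). Chromosome 2 has the tallest bar (2.28%), and 16 of its 18 changed genes lie to the right of Nutm1.

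The 16 genes beyond Nutm1 were of unlike function and were named here for their place, after their values were seen. In order from Nutm1 they were Tmco5b, Rtf1, Tubgcp4, Trim69, Bloc1s6, Banf2, Cstl1, Gins1, Zcchc3, Bpifa3, Ahcy, Scand1, Adig, B4galt5, Tmem189 and Bmp7. Tubgcp4, a gamma-tubulin complex gene, read 4.75, 4.82 and 4.98 in KO and 6.73, 7.05 and 7.43 in WT (-2.22, SE 0.28, at least 2.74-fold, adjusted p = 0.00169), but its other probe differed by -0.69 and did not pass. Banf2, a relative of the DNA-binding barrier to autointegration factor, read 8.004, 8.34 and 8.35 in KO and 10.32, 10.18 and 11.03 in WT (-2.28, SE 0.24, adjusted p = 0.000459). Ahcy, which breaks down S-adenosylhomocysteine, was detected on no KO array and was lower by 1.81 (SE 0.37, at least 2.69-fold, adjusted p = 0.0449). Lower too were Adig by 1.64 (SE 0.24, adjusted p = 0.00524), Tmem189 by 1.15 (SE 0.21, adjusted p = 0.0235) and Scand1 by 0.84 (SE 0.17, adjusted p = 0.0419). Calls of Ahcy, Scand1 and Tmem189 were lost in 10, 12 and 4 of the 12 fits without 1 array. On the other side Glt6d1 and Csrnp3 (-2.40, SE 0.44, adjusted p = 0.0234) were the genes that changed, and the call of Csrnp3 was lost in 4 of those fits.

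Nearly all spermatocyte changes were also present in round spermatids. Of the 106 features, 99 passed there in the same direction (78 lower, 21 higher), 0 passed in the opposite direction and 7 did not pass. These 99 are 93.4% of the spermatocyte calls and 5.24% of the 1890 round spermatid calls, which make up 14.9% of all features. Both stages share the same estimate of the spread of each gene and, within a genotype, the same fractionations, so their calls are not independent. The main fit has no term for the shared fractionations. The median fitted difference in round spermatids was -3.21 for the falls and 1.63 for the rises. The test of the stage difference passed for 26 of the 82 falls, each with the more negative fitted difference in round spermatids, and for 0 of the 24 rises. Of these 26, 17 were detected on no KO spermatocyte array, 13 on no KO round spermatid array and 12 on neither, and 6 were detected on all KO arrays of both stages. Where KO arrays do not detect a gene, its fitted difference follows the WT level above the floor and does not measure the size of the loss. A larger loss in round spermatids is thus not measured for those genes. It passed for 189 features in all (1.49%). The plot of both stages sets the values side by side.

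**Figure D5:**
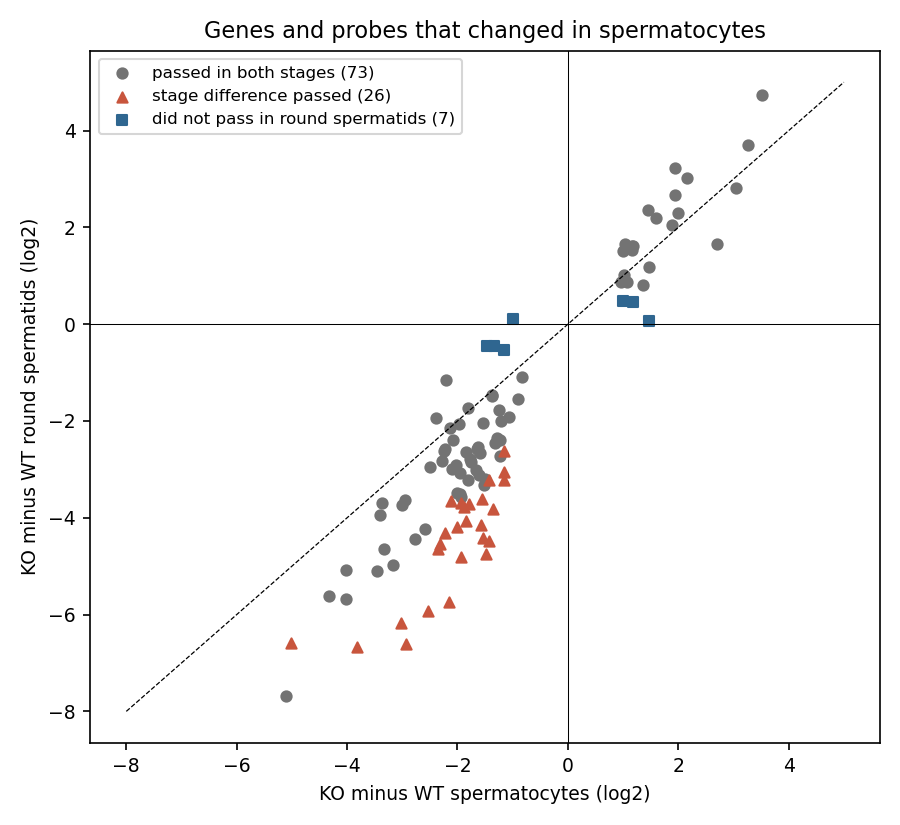
KO minus WT difference in spermatocytes (log2, x axis) and round spermatids (log2, y axis) of the 106 features that changed in spermatocytes, with equality as the dashed line. The 26 triangles, whose stage difference passed, all lie below the line among the falls, and 7 squares mark features that did not pass in round spermatids.

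The genes that passed in spermatocytes and not in round spermatids included a highly expressed ubiquitin ligase. Trim69, a RING-type ligase gene, read 11.07, 11.18 and 11.32 in KO and 12.48, 12.66 and 12.86 in WT (-1.47, SE 0.19, adjusted p = 0.00169), against -0.45 in round spermatids. Bloc1s6, a subunit of an endosomal sorting complex, read 7.03, 7.22 and 7.11 in KO and 7.88, 8.19 and 8.29 in WT (-0.999, SE 0.18, adjusted p = 0.0186), against 0.10. Gins1, a subunit of the replicative helicase, read 9.04, 9.70 and 8.95 in KO and 10.39, 10.53 and 10.23 in WT (-1.16, SE 0.23, adjusted p = 0.0374), against -0.53. In each the KO arrays lay below all WT arrays, and Trim69 kept its call without any 1 array. Rtf1, of the Paf1 transcription elongation complex, read 8.57, 8.71 and 9.09 in KO and 7.62, 7.83 and 7.93 in WT (0.99, SE 0.19, adjusted p = 0.0271), against 0.48. Zcchc3, a zinc finger gene, differed by -1.34 (SE 0.27, adjusted p = 0.046), against -0.46, and Inpp4a and Insig1 by 0.06 and 0.46 in round spermatids. For 0 of these 7 did the stage difference itself pass, so they are not shown to differ between the stages. Trim69, Bloc1s6, Rtf1, Gins1 and Zcchc3 all lie beyond Nutm1 on chromosome 2, and 5 of the 12 fits without 1 array lost the call of Bloc1s6, 8 that of Gins1, 4 that of Rtf1 and 10 that of Zcchc3.

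The mixed arrays gave the same directions for all changed genes. On replicates 4 to 6 all 82 falls were lower in KO, 81 of them with the arrays apart, and all 24 rises were higher and apart, with medians of -1.97 and 1.76. The fall whose mixed arrays overlapped was Tubgcp4, which differed by -0.52 there against -2.22 on the direct arrays. These arrays hold the RNA of replicates 1 to 3 and add no animals, and mixtures of the genotypes lay apart for 55.4% of all features. The median distance of a mixed array from the mean of its parent arrays was 0.16 to 0.22 in WT and 0.36 to 0.50 in KO.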

How the data were processed

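Total RNA of spermatocytes and round spermatids was measured on Illumina bead arrays, 4 groups of 6 arrays. The deposited non-normalized intensity of each probe has no normalization between arrays evident, per the file headers and the array medians, and bead summarization is not given in the sources used here. The deposited detection p-value stands beside each intensity, per the file headers. The authors' processed intensity values are quantile-normalized on a linear scale and served as an alternative. The 24 arrays were normalized together with neqc of limma 3.58.1 (R 4.3.3), which corrects background from the detection p-values, adds an offset of 16, quantile-normalizes and takes log2. The offset shrinks folds of dim probes. The filter kept 17401 probes (38.4%), those detected (p under 0.01) on 3 or more of the 12 direct arrays. A gene's probe with the highest mean stands for it. The platform annotation names 1 gene for 34885 probes, several for 18 and none for 10378, and 34807 were matched to RefSeq. The 12 direct arrays entered 1 limma fit (lmFit, eBayes) with 4 group means (residual degrees of freedom 8, prior 4.07), with Benjamini-Hochberg adjustment over 12705 features. "Passed", "rose", "fell" and "changed" mean an adjusted p under 0.05, and every adjusted p comes from this model unless a second probe or an alternative is named. Second probes were adjusted over all kept probes. A gene detected on no array of its lower group has a bound as its fold: the mean of the higher group against, per array, the lowest detected level or the value itself if higher. A detection p is inferred to be against control beads.

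The members, the 47 gene lists (1142 entries, 1017 on the array, 729 measured) and the tests were chosen with earlier results of these data known, and lists are described by counts and medians. Genes named are Nutm1, the 12 largest falls and 12 largest rises with current symbols, arrays apart and detection on all 3 arrays of the higher group, the 5 largest stage differences by adjusted p, genes that passed in spermatocytes only and up to 4 members per list by p. Other genes of chromosome 2 were added for their position after their values were seen. Same-numbered KO and WT arrays are not paired by the labels, and their residuals correlated at -0.187, -0.339 and 0.061. Alternatives covered scaling, background, offset, filter, probes, samples, weights, replicate blocks and each array left out.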

Additional observations from a re-analysis of the deposited data

Results flagged for a closer look

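The test of the difference between stages (limma, 3 arrays per group) passed for 26 falls, each more negative in round spermatids than in spermatocytes. Of these, 9 flagged genes and Tmem189 are given below. All arrays of KO lay below all arrays of WT in spermatocytes for each of them. Where KO arrays do not detect a gene, the fitted difference follows the WT level above the floor, and a larger loss is not measured. Cyp2a12, Tmod4 and Snx29 were detected on no KO array of either stage. Cyp2a12, a cytochrome P450 gene, differed by -2.93 in spermatocytes (WT mean 7.60) and -6.61 in round spermatids (WT mean 11.19), a stage difference of -3.68 (SE 0.364, adjusted p = 0.000958). Tmod4, which caps actin filaments, differed by -2.54 (WT mean 7.52) and -5.92 (WT mean 10.72), a stage difference of -3.39 (SE 0.454, adjusted p = 0.00336), and 2 other probes of it by -2.09 and -1.03 in spermatocytes. Snx29, a sorting nexin gene, differed by -1.44 (WT mean 5.98) and -4.48 (WT mean 9.06), a stage difference of -3.04 (SE 0.373, adjusted p = 0.00269). It was detected on 2 of the 3 WT spermatocyte arrays, and its other probe differed by -0.92 in spermatocytes and did not pass. The spermatocyte call of Snx29 was lost in 4 of the 12 fits without 1 array.

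Klk1b9, a kallikrein, was detected on 1 KO spermatocyte array and 0 KO round spermatid arrays, and Calml4, a calmodulin-like gene, on 0 and 1. Klk1b9 differed by -2.16 and -5.75 (stage difference -3.59, SE 0.435, adjusted p = 0.00269), and Calml4 by -1.53 and -4.41 (stage difference -2.88, SE 0.387, adjusted p = 0.00336). The spermatocyte call of Calml4 was lost in 4 of the 12 fits without 1 array. Prkar2a, a protein kinase A subunit gene, and Dydc2 were detected on 0 KO spermatocyte arrays and all 3 KO round spermatid arrays, so their spermatocyte losses are bounds. Their stage differences were -1.78 (SE 0.328, adjusted p = 0.02) and -1.56 (SE 0.343, adjusted p = 0.0467). Car2, detected on 1 and 2 of the KO arrays, gave -2.86 (SE 0.563, adjusted p = 0.0295), from -3.81 to -6.67. The beta-defensin gene Defb33, detected on all KO arrays of both stages, gave -1.76 (SE 0.372, adjusted p = 0.0406). Tmem189, of chromosome 2, was also detected on all KO arrays of both stages. It differed by -1.15 in spermatocytes (WT mean 7.58) and -3.23 in round spermatids (WT mean 10.32). Bpifa3 (-5.11 and -7.68), detected on no KO array of either stage, had a stage difference of -2.58 that did not pass (adjusted p = 0.057).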

How the results depend on the processing

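The spermatocyte count of 106 was 51 without background correction, 51 on the authors' processed values, 35 with the 6 spermatocyte arrays alone and 27 with these scaled by cyclic loess (an alternative chosen after seeing the data). It was 3528 with mixtures included and 5985 with mixtures alone, which are not separate samples. Leaving out 1 array gave 60 to 105 (round spermatid arrays left out after seeing the data). Every one of the 106 kept its sign in each fit with 1 probe per gene that measured it. Other probes of the changed genes Cbx3 (-0.03 against 1.17), Hipk2 (0.20 against -1.16) and Kif1a (0.14 against -1.57) had the opposite sign and did not pass. The other fits stayed within 1.5 times of 106. The replicate number as a fixed block gave 108 calls, 96 of them shared, and the fractionation as a random block 108, with all 106 shared (consensus correlation 0.0817). With the fractionation as a random block 269 stage differences passed, against 189 in the main fit. The round spermatid count of 1890 was 4912 with mixtures included, 4054 with mixtures alone and 3777 with array weights, and 948 to 2409 with 1 array left out. The count of stage differences, 189, was 339 without background correction, 293 with an offset of 50, 340 on the authors' processed values, 63 with the spermatocyte filter, 2136 with mixtures included, 3058 with mixtures alone and 1123 with array weights, and 82 to 490 with 1 array left out. Cyclic loess put the share of falls at 76.3% of round spermatid calls, against 53.7%, and at 98.1% of stage differences, against 87.8%. In spermatocytes Nutm1 passed with mixtures included (-0.54) and in no other fit (-0.90 to -0.34 with 1 array left out, -0.24 without background correction). Of 43 genes named, 16 kept their call under all alternatives measured, 0 reversed, and 26 kept it without any 1 array. Calls lost most often were those of Inpp4a and Insig1 (17 of 27 alternatives each), Zcchc3 and Scand1 (16 each) and Lrrk1 and Ahcy (14 each). Where no value above shows a cause, the cause was not tested. Signals near the floor limit genes detected on no array of a group.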

Other observations

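The largest rise of all in KO spermatocytes by fitted difference belonged to a probe with no gene name in the annotation used here, which differed by 3.51. A second unnamed probe differed by 3.26. Of the 3 rises fitted at 8-fold or more, these probes and Cnga3, 1 remained so with undetected features at their bound. The fitted values of both probes are thus not both measured sizes. Unnamed probes made up 8 of the 24 rises and 14 of the 82 falls. Wfdc3, a gene of whey acidic protein type on chromosome 2 beyond Nutm1, differed by -3.55 with KO and WT arrays apart, yet did not pass. It was chosen after its values were seen.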
